A study of Mus musculus with 6 samples.

Results

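The Wnt pathway was examined here gene by gene in calvaria cells, through a list of 40 genes that encode Wnt ligands, their receptors and the proteins that carry the signal inside the cell. The list held 7 Wnt ligands and the enzyme that makes them fit for release, 14 receptors, 4 genes of the R-spondin branch, 10 genes of the β-catenin destruction complex and its Dishevelled partners, and 4 TCF/LEF factors. The rule for a member was its role in the pathway, and the list was drawn up with earlier results of these data known. Of the 40 genes, 35 had a probe on the array (51 probes) and 19 were measured well enough to be tested, out of 16593 genes on the array and 7695 tested.

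RNA was measured on 6 Illumina mouse arrays, 3 for each group. The study describes cells of mouse calvaria, sorted for the green fluorescence of a GFP:*Osx1-Cre* transgene, from mice with floxed alleles of estrogen receptor α (ERα f/f) and from controls that carry the transgene alone. Both groups thus carry the Cre, which is driven by the promoter of *Osx1*, a gene of the osteoblast lineage, and the labels give the strain as C57BL/6. By the study's methods, calvaria cells of mice with ERα deleted, a few days old, were isolated and cultured. Whether the sorting came before or after culture is not stated. The groups are called ERα deleted and control below, and every difference is that of the ERα deleted over the control arrays.

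The GEO labels name the groups differently, as an *Mmp13* knockout and a wild type, and the data bear on this. *Mmp13*, which encodes a collagenase, had normalized log2 signals of 12.41, 12.91 and 12.79 on the arrays labelled knockout and of 8.91, 9.42 and 9.73 on those labelled wild type (log2 fold change 3.35, adjusted p = 0.00048). Arrays that bear the name of its knockout thus held more of its transcript, and the names of the study were used for the same groups of 3. Both probes of *Esr1*, the gene of ERα, were undetected on all 6 arrays, so the deletion itself could not be read. Every direction below rests on that naming.

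Between 40.2% and 43.6% of probes were detected, which here means a scanner detection p under 0.01. Arrays correlated with r of 0.991 to 0.995 within the ERα deleted group and 0.929 to 0.982 within the control group. Control replicate 2 stood apart, with 95 probes over 2 log2 units from both other controls, against 11 for control replicate 3 and 0 for the other 4 arrays. Of 8 osteoblast markers on the array only *Dmp1* was undetected throughout, and of 7 tested 4 were higher in ERα deleted cells and 1 was lower. Of all 7695 genes tested, 9.62% were higher and 9.93% lower, which applies to each marker list here. The genes of mineralising osteoblasts *Ibsp*, *Bglap2*, *Bglap* and *Alpl* were higher, with log2 fold changes of 2.25, 1.48, 1.43 and 1.02 (adjusted p from 0.00048 to 0.025). *Ibsp* was detected on all 3 ERα deleted arrays but on 0 control arrays. It was thus tested by virtue of the group in which it was high. Its control signals lay below the detection limits, which leaves a difference of at least 3.1-fold. *Sp7*, the gene also called *Osx1*, was lower (log2 fold change -0.80, adjusted p = 0.0073). The brightest osteoblast markers, *Col1a1* and *Col1a2*, were not called (log2 fold changes -0.17 and 0.41, adjusted p = 0.59 and 0.078). The summed osteoblast signals overlapped, at 26027 to 30173 in ERα deleted and 20276 to 29299 in control arrays. Of 9 macrophage and osteoclast markers tested, 8 were lower (*Adgre1*, *Cd14*, *Cd52*, *Ctss*, *Fcer1g*, *Laptm5*, *Lyz2* and *Tyrobp*) and 0 higher, with *Ctsk*, a protease of osteoclasts, at a log2 fold change of 0.12 (adjusted p = 0.40). *Tyrobp* was detected on 0 ERα deleted arrays, *Cd52* and *Ctss* on 1 each, and *Adgre1* and *Fcer1g* on 2 each. These were tested by virtue of the control arrays. The macrophage and osteoclast list had summed signals of 6021 to 6444 in ERα deleted and 8453 to 9862 in control arrays. *Ctsk* was its brightest gene on every array, so these sums mix its level with those of the genes that were lower. *Acp5*, *Itgam*, *Ocstamp* and *Ptprc* were undetected on every array. Of 2 skeletal muscle markers tested 1 was lower, and of 2 keratinocyte markers 1 was higher. That one, *Trp63*, was detected on 3 ERα deleted and 0 control arrays. The brighter *Krt10* ran the other way and was not called (log2 fold change -0.33, adjusted p = 0.054). The summed keratinocyte signals were 264 to 279 in ERα deleted and 312 to 319 in control arrays. The chondrocyte and adipocyte lists each had 1 tested marker, *Col2a1* and *Pparg*, and 0 called. The summed chondrocyte signals were 1026 to 1391 in ERα deleted arrays and 1586, 3315 and 860 in control replicates 1 to 3. No endothelial or red cell marker reached the test. The part of these other-cell markers, and of control replicate 2, in the results below was not tested beyond the values without that array. In a bulk sample, fewer cells of a type and less RNA per cell cannot be told apart.

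Wnt ligands are lipid-modified glycoproteins that bind a Frizzled receptor together with LRP5 or LRP6. Without ligand, a complex of Axin, APC and glycogen synthase kinase 3 marks β-catenin for destruction, and with ligand Dishevelled disarms that complex so that β-catenin can enter the nucleus and act with TCF/LEF factors. Other ligands, WNT5A among them, signal mostly through ROR2, RYK and Frizzled receptors without β-catenin. In bone, canonical Wnt signaling in the osteoblast lineage promotes bone formation and restrains osteoclast formation.

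Among the 19 tested members, 6 passed an adjusted p of 0.05 in limma's moderated test, which is 31.6% as compared to 19.5% of all 7695 genes tested. The transcripts of *Lgr5*, *Fzd1*, *Ctnnb1* and *Porcn* were higher in ERα deleted cells (4 of 19, against 9.62% of all genes), and those of *Fzd7* and *Nkd2* were lower (2 of 19, against 9.93%). *Lgr5* could be tested only because of the ERα deleted arrays, so these shares are a description. The other 13 did not pass, and at an unadjusted p of 0.05 the count was 9 of 19, against 35.7% of all genes. The median log2 fold change of the 19 was 0 and that of all genes was -0.04, while the median absolute log2 fold change was 0.38 against 0.27. The 3 arrays of one group all lay on one side of the other 3 for 12 members, or 63.2%, a pattern that 44.2% of all genes showed. A single gene with 3 arrays against 3 cannot go below an exact permutation p of 0.1, so the moderated test, which borrows the spread of all genes, carries the calls. Because the sources used here do not say that the arrays came from separate cultures or litters, these p-values measure the spread between arrays.

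**Figure D1:**
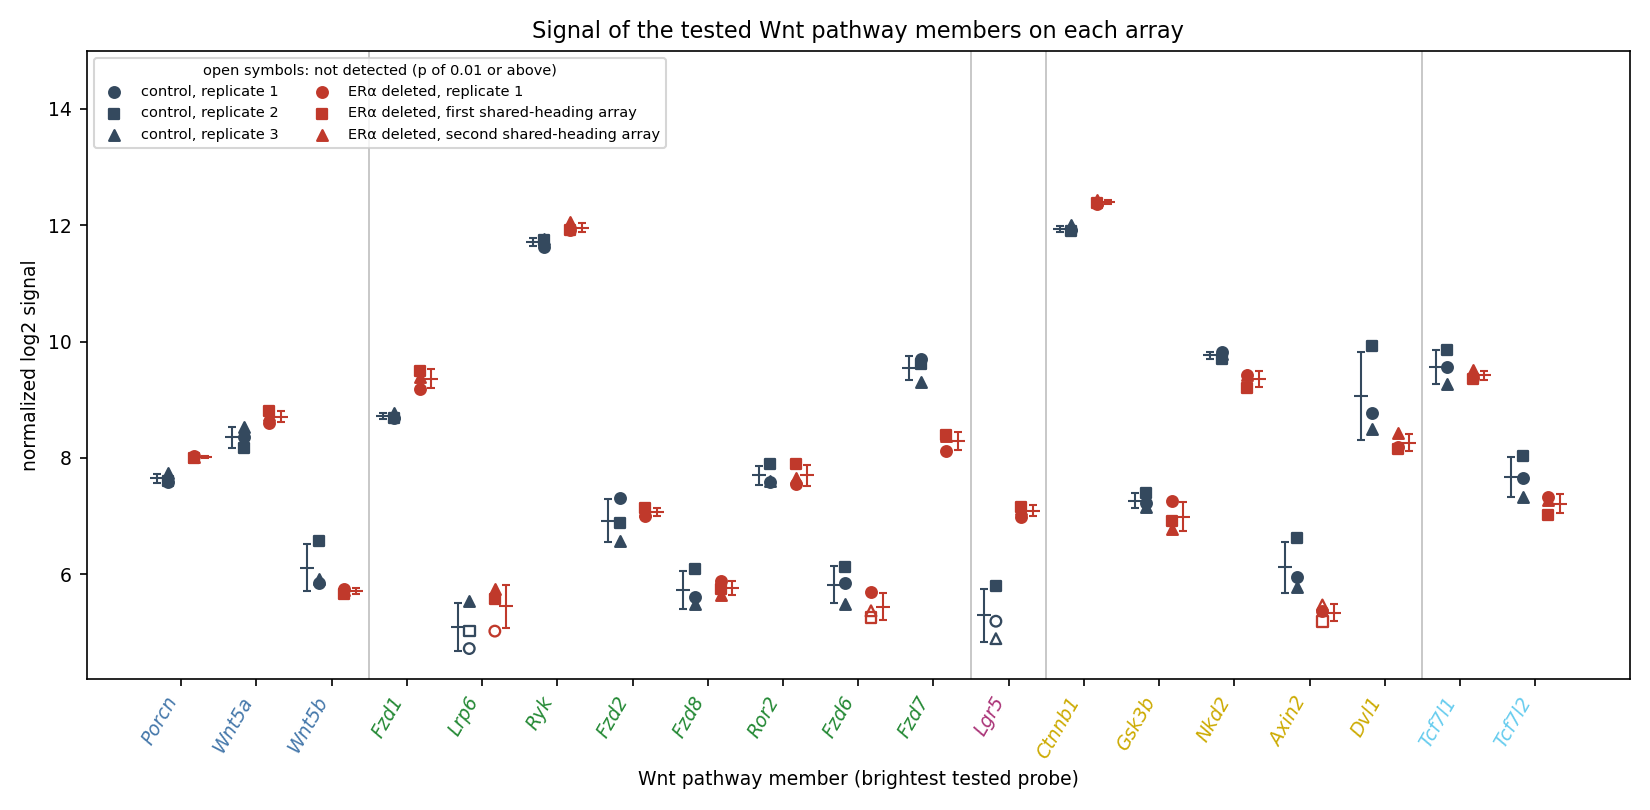
Normalized log2 signal (y axis) of the brightest tested probe of each of the 19 tested Wnt pathway members (x axis, coloured by role) on each of the 3 ERα deleted and 3 control arrays, where open symbols mark arrays on which the probe was undetected and bars give the mean and SD of each group. *Lgr5* and *Fzd7* have the widest gaps between the groups. Control replicate 2 is the highest control for 10 of the 19 members, or 52.6%, and for 42.7% of all genes. Signals of different probes are not comparable with each other.

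With the background correction used here the widest difference was that of *Lgr5*, a receptor for R-spondins, the secreted proteins that strengthen Wnt signaling by protecting Frizzled receptors from degradation. Its probe (ILMN_2650008) gave log2 signals of 6.98, 7.16 and 7.12 on the ERα deleted arrays and of 5.19, 5.79 and 4.89 on the control arrays. The groups were far apart, and the 3 ERα deleted arrays lay within 0.18 of one another while control replicate 2 was the highest control. The log2 fold change was 1.80 ± 0.23 (SE) (95% interval 1.25 to 2.34, adjusted p = 0.0035). The probe was detected on all 3 ERα deleted arrays but only on control replicate 2 among the controls, so it was tested by virtue of the group in which it was high. The control mean of 5.29 lay below the detection limits of the control arrays (5.34 to 5.57), and the size of the difference is therefore uncertain. The scanner signals, before any correction, were 147.0, 227.6 and 208.7 against 103.4, 127.2 and 107.9. With no background correction the log2 fold change was 0.92, smaller than the -1.08 of *Fzd7*, and with the saddle-point fit it was 1.04 against -1.12. The *Lgr5* difference stayed past the threshold in each of the 17 alternatives that gave a value.

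The other genes of the R-spondin branch gave less. *Lgr6*, a relative of *Lgr5*, and *Znrf3*, a membrane ligase that removes Frizzled receptors, were undetected on all 6 arrays. No probe was named for *Lgr4*. The R-spondin *Rspo3*, which is not one of the 40 genes but a ligand of LGR5, was higher as well. Its arrays read 9.25, 9.71 and 9.76 in ERα deleted cells and 8.52, 8.65 and 8.84 in controls, a log2 fold change of 0.90 ± 0.17 (SE, adjusted p = 0.015). It lost its call when either of the ERα deleted arrays with a shared heading or control replicate 1 was left out. Among the other R-spondin genes, *Rspo2* was tested and not called (log2 fold change 0.64, adjusted p = 0.085). *Rspo1* and *Rspo4* were undetected on all 6 arrays.

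Among the Frizzled receptors, the transcript of one fell and that of another rose. *Fzd7* (ILMN_2907560) had log2 signals of 8.12, 8.39 and 8.37 in ERα deleted cells as compared to 9.70, 9.61 and 9.31 in controls. Every ERα deleted array was below every control array by at least 0.92. This was a log2 fold change of -1.24 ± 0.14 (SE, 95% interval -1.59 to -0.90), or a 2.37-fold lower level (adjusted p = 0.0024). The uncorrected scanner signals showed the same order, with 241.1, 448.5 and 399.2 against 920.5, 1035.4 and 677.6. *Fzd7* passed the threshold in all 18 alternatives, at log2 fold changes of -1.44 to -1.08.

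*Fzd1* (ILMN_2683698) moved the other way. It read 9.18, 9.50 and 9.39 in ERα deleted cells and 8.69, 8.68 and 8.77 in controls. The 3 controls were nearly equal, and the lowest ERα deleted array was still 0.41 above the highest control. The log2 fold change was 0.64 ± 0.12 (SE, 95% interval 0.36 to 0.92), a 1.56-fold higher level (adjusted p = 0.014). It missed the threshold when either shared-heading ERα deleted array was left out (adjusted p = 0.065 and 0.073), without control replicate 1 (adjusted p = 0.064) and when arrays were scaled to one median (adjusted p = 0.3).

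The remaining Frizzled genes did not pass. *Fzd2* had a log2 fold change of 0.15 ± 0.19 (SE, 95% interval -0.30 to 0.61) and *Fzd8* one of 0.03 ± 0.18 (SE, 95% interval -0.40 to 0.45). *Fzd6* was detected on all 3 control arrays but on 1 ERα deleted array, with a log2 fold change of -0.38 (adjusted p = 0.22) and overlapping groups. *Fzd4* was detected on too few arrays to be tested and *Fzd3* on none, and no probe was named for *Fzd5* or *Fzd9*.

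The promoters of the Frizzled genes that moved in opposite directions, and that of *Axin2*, a target gene of β-catenin in many tissues, are shown because TCF/LEF factors bind a short core in DNA that can be looked for. Each is the 250 bases before the gene's start in RefSeq (build GRCm38.p6), read 5′ to 3′ on the gene's strand, with any TCF/LEF core in capitals.
Fzd7, chr1:59481897-59482146, plus strand: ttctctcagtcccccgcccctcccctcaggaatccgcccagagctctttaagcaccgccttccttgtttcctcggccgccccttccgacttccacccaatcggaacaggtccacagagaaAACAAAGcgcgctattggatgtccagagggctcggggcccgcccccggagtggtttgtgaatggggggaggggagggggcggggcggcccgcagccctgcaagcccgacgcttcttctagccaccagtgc
Fzd1, chr5:4758217-4758466, minus strand: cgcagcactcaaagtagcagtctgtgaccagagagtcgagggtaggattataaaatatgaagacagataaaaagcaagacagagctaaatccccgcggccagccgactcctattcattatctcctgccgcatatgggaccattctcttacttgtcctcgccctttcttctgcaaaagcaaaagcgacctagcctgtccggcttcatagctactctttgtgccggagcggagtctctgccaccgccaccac
Axin2, chr11:108920099-108920348, plus strand: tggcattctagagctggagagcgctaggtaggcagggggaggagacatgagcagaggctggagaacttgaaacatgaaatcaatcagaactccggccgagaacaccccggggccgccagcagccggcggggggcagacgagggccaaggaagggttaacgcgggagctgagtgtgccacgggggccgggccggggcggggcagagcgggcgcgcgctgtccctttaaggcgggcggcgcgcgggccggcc
The core was searched on both strands as CTTTG followed by 2 bases that are each A or T. *Fzd7* held 1 match, on the reverse strand and 130 bases before the start, and *Fzd1* and *Axin2* held none. At least 1 match stood in 14.8% of the 32851 promoters of this length in the table. The table holds 37 promoters of 28 members, and 5 of the 37 had a match (*Fzd7*, *Lef1*, *Tcf7l2*, *Wnt11* and *Wnt5b*). The palindromic site of ERα, searched as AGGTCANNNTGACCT, was in 7 of the 32851 promoters and in those of 0 of the 28 members. These letters are a description of the sequence, not of binding.

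The co-receptors and the receptors of the branch without β-catenin showed smaller values. *Lrp6* (ILMN_2712949), which with LRP5 makes up the co-receptor of canonical signaling, read 5.02, 5.57 and 5.74 in ERα deleted cells and 4.72, 5.02 and 5.53 in controls. The groups overlapped, and the probe was detected on 2 ERα deleted arrays and 1 control array. The log2 fold change of *Lrp6* was 0.36 ± 0.26 (SE, 95% interval -0.27 to 0.99, adjusted p = 0.36). *Lrp5* (ILMN_2942097) read 4.93, 5.47 and 5.13 against 5.76, 5.0 and 5.26 and was detected on 1 array of each group, too few for a test. Both co-receptors were thus close to the detection limit of these arrays. *Ror2*, a tyrosine kinase-like receptor for WNT5A, was detected on all 6 arrays with a log2 fold change of 0.00 ± 0.14 (SE), and the 95% interval of -0.34 to 0.34 gives the size of a change that could have gone unseen. *Ror1* was undetected on all 6 arrays.

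*Ryk*, a kinase-dead receptor that also binds WNT5A, had 3 probes that differed in sign. The brightest (ILMN_2667020) had a log2 fold change of 0.24 (adjusted p = 0.14). The others had log2 fold changes of 0.01 (ILMN_3159826, adjusted p = 0.96) and -0.51 (ILMN_2742420, adjusted p = 0.12). No direction can be given for *Ryk* from these values.

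Of the 8 genes of ligand production, 3 could be tested. *Porcn* encodes the acyltransferase of the endoplasmic reticulum that attaches the lipid without which Wnt ligands are not secreted. Its detected probe (ILMN_3093626) read 8.03, 7.99 and 8.01 in ERα deleted cells and 7.59, 7.61 and 7.74 in controls. All ERα deleted arrays were above all controls by at least 0.25. The log2 fold change of 0.36 ± 0.10 (SE, 95% interval 0.13 to 0.59), a 1.28-fold higher level, lay close to the threshold (adjusted p = 0.048). It missed that threshold in 9 of 18 alternatives, which included leaving out any array but control replicate 3. Its second probe was undetected on all 6 arrays.

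*Wnt5a*, the ligand best known for signaling without β-catenin, was measured by 2 detected probes. The brighter (ILMN_2511913) read 8.60, 8.80 and 8.73 in ERα deleted cells and 8.36, 8.17 and 8.53 in controls, with a log2 fold change of 0.36 ± 0.13 (SE, 95% interval 0.05 to 0.66, adjusted p = 0.10). By the rule that the brightest probe stands for its gene, *Wnt5a* did not pass. The dimmer probe (ILMN_2472917) read 7.40, 7.13 and 7.27 against 6.32, 6.05 and 6.77, a log2 fold change of 0.89 ± 0.19 (SE, 95% interval 0.42 to 1.35, adjusted p = 0.025). On both probes every ERα deleted array was above every control, and control replicate 2 was the lowest array. The mean of both probes gave a log2 fold change of 0.62 (adjusted p = 0.026). The call of the dimmer probe was lost without any 1 of the ERα deleted arrays (adjusted p from 0.074 to 0.094) and without control replicate 1 (adjusted p = 0.093).

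**Figure D2:**
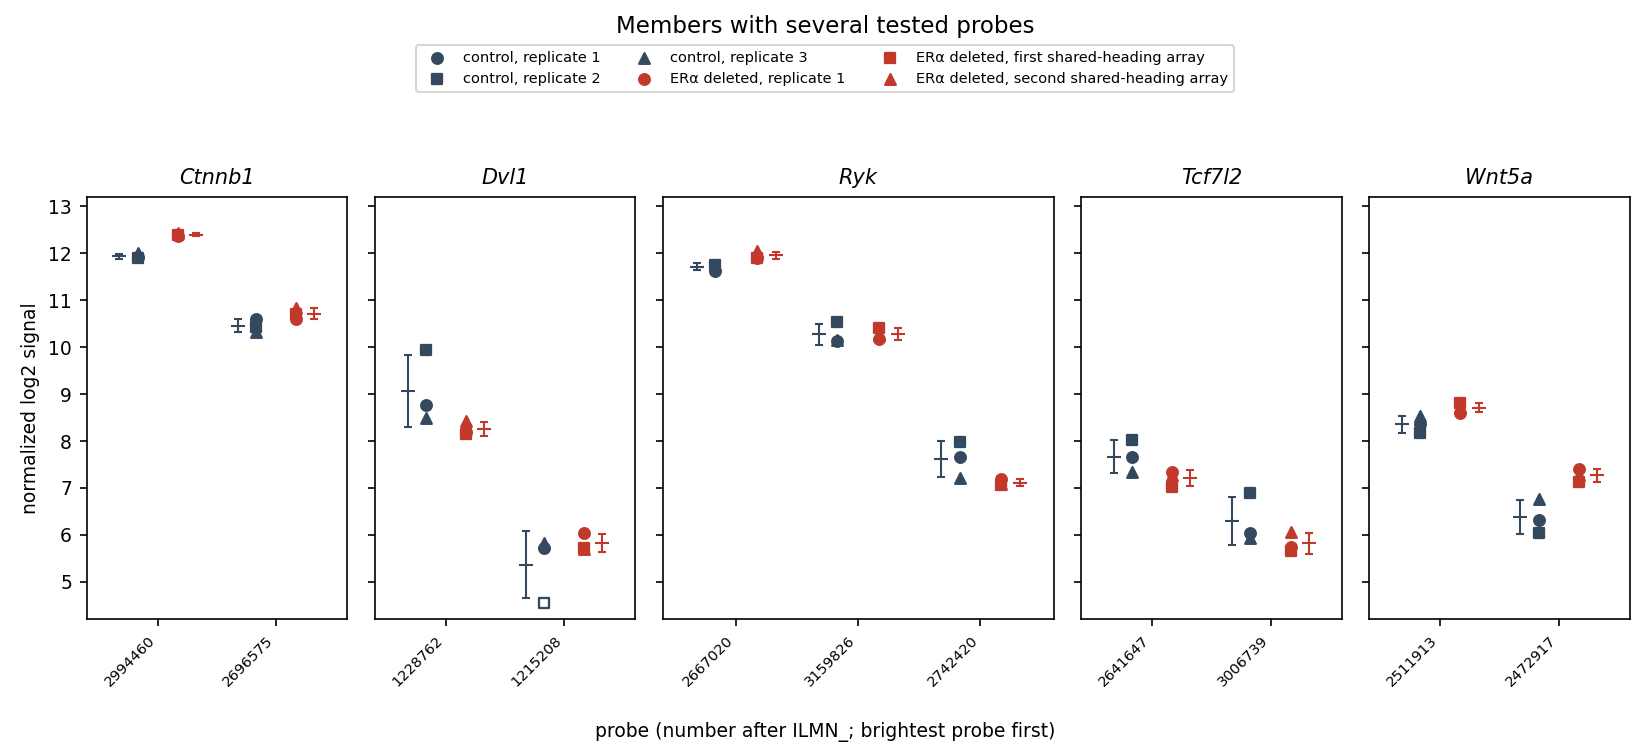
Normalized log2 signal (y axis) of every tested probe of the 5 members with more than 1 tested probe (x axis, brightest probe first) on the 3 ERα deleted and 3 control arrays, with the mean and SD of each group as bars and an open symbol where the probe was undetected. Both *Wnt5a* probes and both *Ctnnb1* probes place all ERα deleted arrays above all controls, whereas the probes of *Ryk* and of *Dvl1* differ in direction.

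*Wnt5b*, a close relative, read 5.74, 5.65 and 5.73 in ERα deleted cells and 5.85, 6.57 and 5.92 in controls. Control replicate 2 stood well above the other 5 arrays. The log2 fold change of -0.40 ± 0.20 (SE) did not pass (adjusted p = 0.2). *Wnt2b*, *Wnt4*, *Wnt10b* and *Wnt11* were undetected on all 6 arrays. *Wnt16*, a ligand that osteoblasts make and that restrains osteoclasts in mice, was detected by 1 of its 3 probes (ILMN_1247108) on both shared-heading ERα deleted arrays and by another (ILMN_2468007) on ERα deleted replicate 1, and by none on a control array. No probe of *Wnt16* reached the 3 arrays needed for a test. From the larger Wnt family, *Wnt2* was lower, with 5.74, 5.23 and 5.30 in ERα deleted cells and 6.65, 6.50 and 6.38 in controls (log2 fold change -1.09 ± 0.17, SE, adjusted p = 0.0069), although it was detected on only 1 ERα deleted array.

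**Figure D3:**
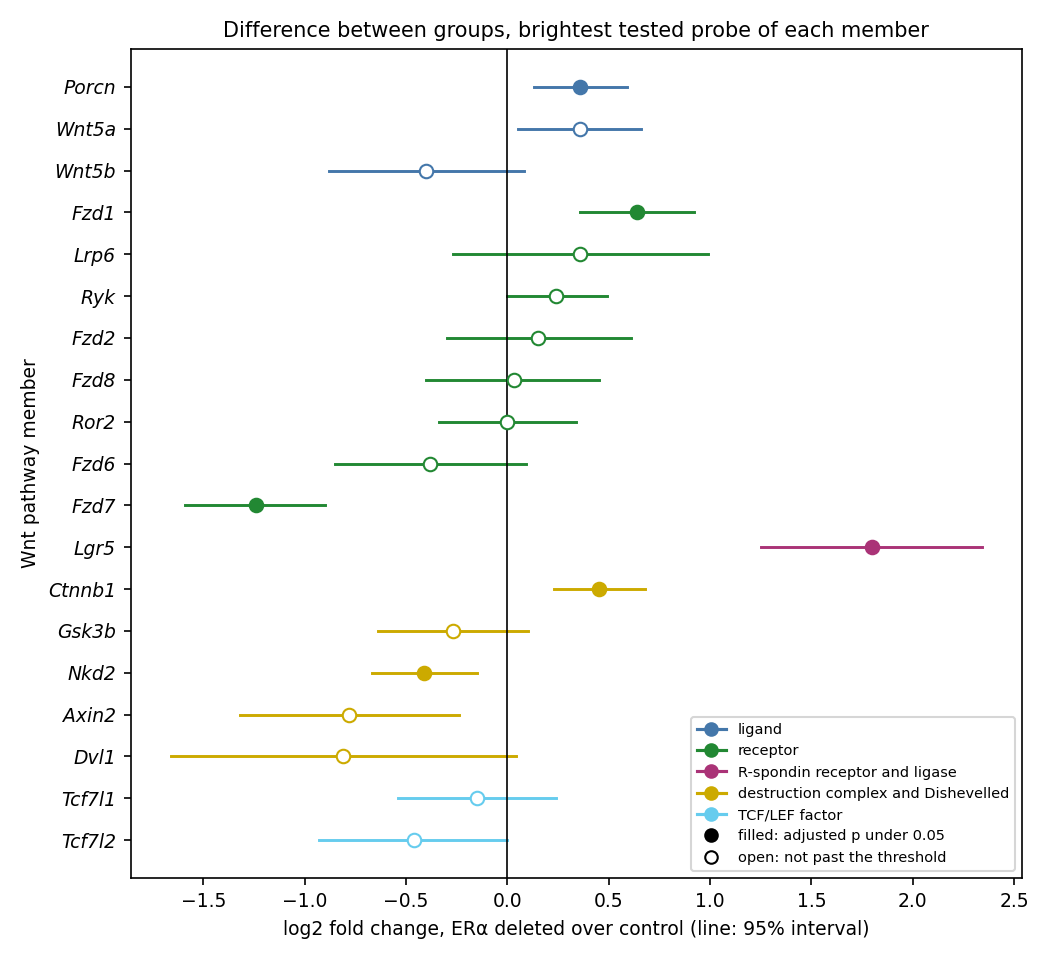
Log2 fold change of ERα deleted over control cells (x axis, lines give the 95% interval) for the 19 tested members (y axis, coloured by role), where filled points passed an adjusted p of 0.05. Values run from -1.24 for *Fzd7* to 1.80 for *Lgr5*, and 13 of the 19 members are open points.

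Inside the cell, β-catenin and its modulators gave 2 calls. *Ctnnb1*, which encodes β-catenin itself, read 12.37, 12.39 and 12.43 in ERα deleted cells and 11.92, 11.90 and 12 in controls on its brighter probe (ILMN_2994460). The spread within each group was at most 0.10, and the groups were 0.37 or more apart. This corresponded to a log2 fold change of 0.45 ± 0.09 (SE, 95% interval 0.23 to 0.68), or 1.37-fold (adjusted p = 0.021). The second probe (ILMN_2696575) ran the same way, with 10.61, 10.70 and 10.84 against 10.60, 10.44 and 10.32, but the gap between its groups was only 0.01 and its log2 fold change of 0.27 ± 0.12 (SE) did not pass (adjusted p = 0.17). The call of the brighter probe was lost under median scaling (log2 fold change 0.20, adjusted p = 0.63), without any 1 of the ERα deleted arrays (adjusted p from 0.068 to 0.1) and without control replicate 1 (adjusted p = 0.084). β-Catenin is controlled chiefly through its protein, which these arrays do not measure.

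*Nkd2* encodes a Naked cuticle protein that binds Dishevelled and dampens Wnt signaling. Its arrays (ILMN_1228631) read 9.43, 9.20 and 9.43 in ERα deleted cells and 9.82, 9.70 and 9.78 in controls. The groups were 0.27 apart. Its log2 fold change was -0.41 ± 0.11 (SE, 95% interval -0.67 to -0.15), a 1.33-fold lower level (adjusted p = 0.047). Like *Porcn* it missed the threshold in 9 of 18 alternatives, which included leaving out any array but control replicate 2. Its relative *Nkd1* was undetected on all 6 arrays.

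*Axin2*, a scaffold of the destruction complex and a common readout of β-catenin activity, did not pass but came near the threshold. It read 5.36, 5.19 and 5.47 in ERα deleted cells and 5.95, 6.62 and 5.78 in controls (ILMN_2896314). All ERα deleted arrays were below all controls, and control replicate 2 was the highest. The probe was detected on 1 ERα deleted array and on all 3 controls, so it was tested by virtue of the control arrays. The ERα deleted mean of 5.34 lay within the range of the detection limits of those arrays (5.29 to 5.5). The size of the difference is therefore uncertain. The log2 fold change of *Axin2* was -0.78 ± 0.23 (SE, 95% interval -1.32 to -0.24, unadjusted p = 0.012, adjusted p = 0.059). Without control replicate 2 the log2 fold change was -0.53 and passed (adjusted p = 0.031), and without control replicate 3 it was -0.95 (adjusted p = 0.023). Without any 1 of the other 4 arrays it ran from -0.86 to -0.70 and did not pass (adjusted p from 0.12 to 0.19). With no background correction it was -0.35.

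**Figure D4:**
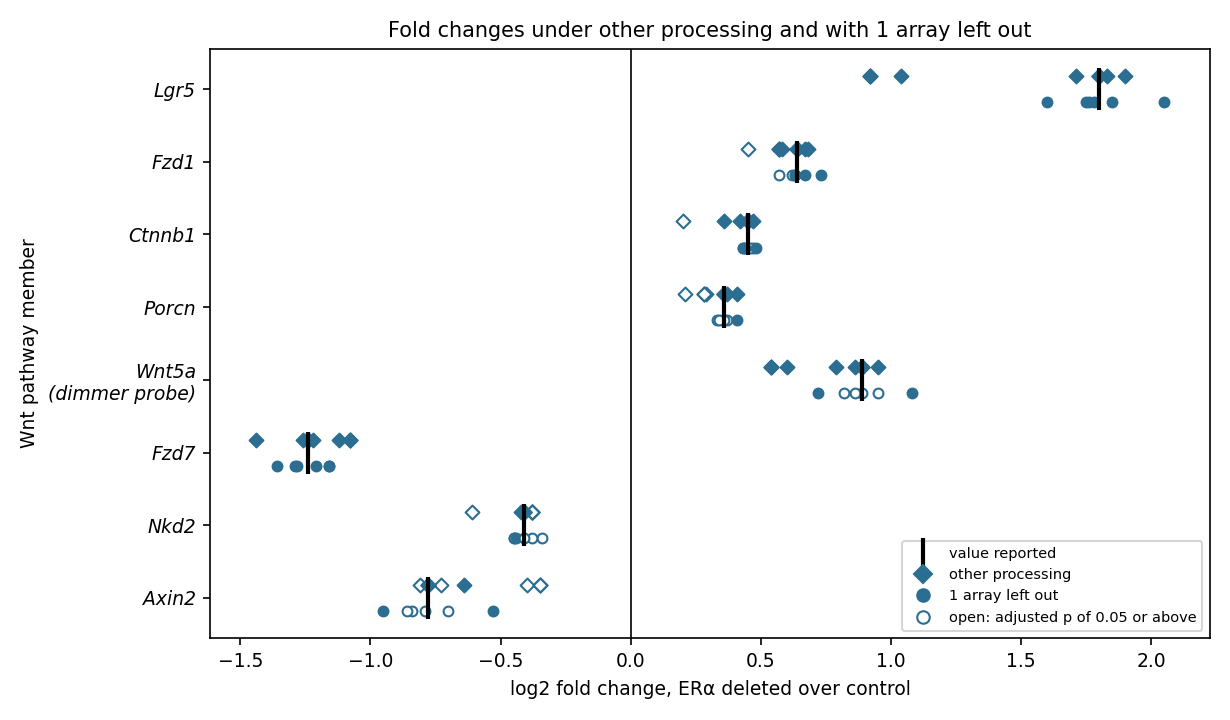
Log2 fold change of ERα deleted over control cells (x axis) for the 6 called members, *Axin2* and the dimmer *Wnt5a* probe (y axis), as reported (bar), under other processing (diamonds) and with 1 array left out (circles), where open symbols have an adjusted p of 0.05 or above. *Fzd7* and *Lgr5* have filled symbols alone, *Lgr5* spans 0.92 to 2.05, and 9 of 18 symbols are open for *Porcn* and for *Nkd2*, some of them overlaid.

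The other tested members of this group did not pass. *Gsk3b*, the kinase that phosphorylates β-catenin, had a log2 fold change of -0.27 ± 0.15 (SE, 95% interval -0.64 to 0.10). *Dvl1*, one of 3 Dishevelled genes, had probes of opposite sign. The brighter (ILMN_1228762) read 8.19, 8.16 and 8.43 in ERα deleted cells and 8.77, 9.93 and 8.50 in controls (log2 fold change -0.81 ± 0.36, SE, adjusted p = 0.16), while the other (ILMN_1215208) had a log2 fold change of 0.46 ± 0.34 (SE, adjusted p = 0.37). Control replicate 2 was the highest array on the brighter probe and the lowest on the other, where it was undetected at 4.55. *Dvl2* and *Dvl3* were undetected on all arrays, *Apc* was detected on 2 control arrays alone, and no probe was named for *Axin1*.

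The TCF/LEF factors bring β-catenin to DNA. Of the 4 genes, 2 were tested and 0 passed in limma, also at an unadjusted p of 0.05. *Tcf7l2* read 7.33, 7.02 and 7.28 in ERα deleted cells and 7.65, 8.03 and 7.33 in controls on its brighter probe (log2 fold change -0.46 ± 0.19, SE, adjusted p = 0.14). Its second probe had a log2 fold change of -0.47 (adjusted p = 0.25), with overlapping groups. *Tcf7l1*, mostly a repressor of Wnt targets, had a log2 fold change of -0.15 ± 0.16 (SE, adjusted p = 0.53). *Lef1* was undetected on all 6 arrays by both of its probes (detection p from 0.18421 to 0.83208), and no probe was named for *Tcf7*.

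Over all 35 members with a probe, 15 were detected on all 6 arrays by their best probe, 8 on 1 to 5 arrays and 12 on none. Of the 8, *Lgr5*, *Axin2*, *Fzd6* and *Lrp6* reached the 3 arrays needed for a test. The control arrays varied more than the ERα deleted arrays for 14 of the 19 tested members, or 73.7%, and for 72.9% of all genes. The median SD of the members was 0.13 in the ERα deleted and 0.29 in the control group, against 0.11 and 0.19 for all genes.

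Genes linked to the pathway outside the 40 were counted by the same test. Of 15 tested known Wnt target genes, 4 were higher and 2 lower. *Birc5*, which encodes survivin, a protein of dividing cells, was higher (log2 fold change 1.87, adjusted p = 0.00059), as was *Tnfrsf19*, a receptor of the tumor necrosis factor family (1.49, adjusted p = 0.00078), though the latter was detected on only 1 control array. *Id2* and *Bmp4*, genes of the BMP pathway, had log2 fold changes of 0.52 (adjusted p = 0.037) and 0.50 (adjusted p = 0.044). *Fosl1* and *Jun*, both AP-1 subunits, were lower, with log2 fold changes of -1.24 (adjusted p = 0.0057) and -0.85 (adjusted p = 0.0062). The members of this list thus did not move in one direction.

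Among 19 further intracellular genes, limma called 0 higher (1 at an unadjusted p of 0.05) and 2 lower, the coactivator *Ep300* (log2 fold change -0.49, adjusted p = 0.021) and the kinase *Nlk* (log2 fold change -0.45, adjusted p = 0.032). Among 17 genes of the planar polarity and calcium branches, 0 were called higher (1 at an unadjusted p of 0.05) and 3 lower. These were *Camk2g* (log2 fold change -0.59, adjusted p = 0.015) and *Prkca* (log2 fold change -0.70, adjusted p = 0.019), kinases that respond to calcium, and *Nfatc1*, a transcription factor driven by calcineurin (log2 fold change -0.41, adjusted p = 0.03). Of 5 further ligand, receptor and secretion genes tested, *Rspo3* and *Wnt2* were the ones called. The share called was 40% of the target genes, 10.5% of the intracellular genes and 17.6% of the planar polarity and calcium genes. It was 40% of the 5 ligand, receptor and secretion genes, as compared to 19.5% of all genes. *Tnfrsf19* could be tested only because of the ERα deleted arrays and *Wnt2* only because of the control arrays. These shares are therefore a description.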

How the data were processed

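Total RNA was labelled with biotin and hybridised to Illumina MouseRef-8 arrays. The deposited scanner intensities are signals that the authors exported with a detection p-value beside each, and all signals were above 0, so that background was still in them. The authors also deposited a table of log2 values, quantile normalized with lumi (version not given in the sources used here). Both tables were linked probe by probe through the ranks on 4 arrays (25697 of 25697 probes). Of the ERα deleted arrays, 2 carry the same heading in the scanner table. They were assigned to the group without a replicate number and are called the shared-heading arrays.

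Background correction and quantile normalization were done with neqc (offset 16) of limma 3.58.1 in R 4.3.3. A probe was tested where 3 or more of the 6 arrays detected it at p under 0.01 (11089 probes), with lmFit and eBayes without covariates, and p-values were adjusted by Benjamini-Hochberg over all of them. The brightest tested probe stood for its gene. Probes were named from the platform annotation, with symbols updated through RefSeq, and 23978 probes named 1 gene each. No gene coordinates are given from the array, whose annotation names no build. The rule for named genes asked for full values of members that passed and, where measured, of *Axin2*, *Ctnnb1*, *Lrp5*, *Lrp6*, *Lef1*, *Tcf7*, *Lgr5* and *Wnt5a*. *Lef1* was undetected and *Tcf7* had no probe. Called genes of the 4 other lists (up to 6 each, by adjusted p) are named with their fold change, and the other R-spondin genes are named beside *Rspo3*. The members and lists were chosen with earlier results of these data known. The test was checked on simulated data. The number of arrays limits the precision.

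Alternatives changed the background correction, normalization, detection filter, variance model, probe rule and arrays included. Deviations from the group means correlated by 0.105, -0.055 and -0.05 between equal replicate numbers. These values do not establish a pairing of the samples and cannot exclude one.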

Additional observations from a re-analysis of the deposited data

How the results depend on the processing

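With 4 members higher and 2 lower as reported, median scaling gave 1 and 1, cyclic loess 1 lower, the looser detection filter 1 lower, and leaving out 1 array 1 to 5 higher and 1 to 4 lower. Without either shared-heading array or control replicate 1, only *Lgr5* and *Fzd7* passed. No pairing was established. With the replicate number as a replicate block in the authors' normalized table, 3 members were higher and 1 lower, against 4 and 2 in that table without the block. Median scaling moved the median of all genes to -0.187 (log2), and relative to it *Ctnnb1* was at 0.39, *Fzd1* at 0.64 and *Porcn* at 0.40.

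For further ligand, receptor and secretion genes, median scaling gave 0 higher and 2 lower, array weights 2 and 2, and the mean of probes 2 lower. Leaving out 1 array gave 0 to 2 higher and 1 to 2 lower for them. For further intracellular genes, no filter gave 1 higher, median scaling 0 lower, the block 0 lower, the mean of probes 1 lower, and leaving out 1 array 0 to 4 lower. For planar polarity and calcium genes, 1 was higher with no background correction, with the saddle-point fit, in the authors' table without the block and with array weights, 0 were lower under median scaling and 1 with the block, and leaving out 1 array gave 0 to 2 higher and 0 to 3 lower. For target genes, median scaling gave 2 higher, and leaving out 1 array 2 to 5 higher and 2 to 3 lower. The cause was not tested.

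Signs turned only where values were not called. With 1 array left out, the log2 fold change ran from -0.02 to 0.35 for *Fzd2*, from -0.09 to 0.21 for *Fzd8*, from -0.10 to 0.10 for *Ror2* and from -0.06 to 0.14 for the middle *Ryk* probe. Under median scaling it was -0.01 for *Fzd8*, -0.14 for *Ror2* and -0.20 for the middle *Ryk* probe, and the mean of the *Ryk* probes was -0.09. The stricter filter left *Lgr5*, *Axin2*, *Lrp6* and *Fzd6* without a value.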
